A study of Homo sapiens with 6 samples.

Results

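The peaks described here are the NME2 binding sites called beside the longest peak-free stretch of each chromosome, which is taken here as the place of the centromere gap. They came from ChIP-seq in A549 cells, a human lung adenocarcinoma line, which gave 1 deposited list of peaks before and 1 after inducing NME2. Members were chosen by the positions of the peaks themselves: on chromosomes 1 to 12 and 16 to 20 both lists were pooled, the longest stretch between neighbouring peaks was taken as the gap, and every peak lying within 3 Mb of either edge of it was kept. This gave 638 of the 14086 deposited peaks, of which 267 were from the 2541 peaks found before induction and 371 from the 11545 found after. Both deposited lists hold more peaks than the authors report for the same condition, and the reason was not examined. The choice read where a peak lay and not which list held it. It was nevertheless made with results of these lists known, so the comparisons below are descriptions.

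Before induction, untransfected cells were precipitated with the anti-nm23-h2 antibody (L-16), in 2 NME2 libraries with 1 IgG library. The induced cells had been transfected with myc-tagged pcDNA3-NME2 for 48 h and were precipitated with a monoclonal antibody to c-Myc, again in 2 NME2 libraries with 1 IgG library. The labels name mouse IgG for the control before induction and goat IgG for the control after it. These species may be exchanged between the conditions, since the monoclonal against c-Myc is a mouse antibody and L-16 a goat antibody, so which IgG library each list was called against is uncertain. Antibody and IgG therefore changed together with NME2 induction, and the effects of the 3 cannot be told apart. The lists hold positions only, without read counts, scores or replicate columns. The depth behind a peak is thus unknown, no spread between replicates can be given, and with 1 list per condition no test between conditions was possible. The intervals given are exact binomial 95% intervals and cover the counting of peaks only, as if each peak were called independently of its neighbours.

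NME2, also called NM23-H2, is a nucleoside diphosphate kinase that also binds DNA and is known as a suppressor of metastasis. Centromeres are built on long arrays of satellite repeats, alpha satellite above all, and are flanked by pericentromeric sequence rich in satellites and segmental duplications. Assemblies of this generation left most of these arrays as gaps, and the short repeat blocks that were placed at their borders stand for many copies in the cell. The repeat content of the regions described below was not examined.

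The gaps measured from 1.41 Mb on chromosome 18 to 20.4 Mb on chromosome 1, with a median of 3.78 Mb over 17 chromosomes. On 14 chromosomes the longest stretch was at least 1.5 times as long as the next one. On chromosomes 17, 18 and 20 it was not, and on chromosome 18 the longest and the second longest stretch (1.41 Mb each) could hardly be ranked, so the name centromere gap is least certain there. The longest stretch of the list after induction alone overlapped the pooled gap on 16 of 17 chromosomes. That of the sparser list before induction did so on 7. Of the 34 edges, 14 were set by a peak found before induction, 19 by a peak found after it and 1, to the left of the gap of chromosome 7, by a peak of both lists.

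A larger share of the list before induction lay beside the gaps. Of the 2114 peaks before induction on these chromosomes 267 (12.6%, interval 11.2 to 14.1%) were members, against 371 of 9521 (3.90%, 3.52 to 4.30%) after induction. The ratio of the shares was 3.24 (interval 2.79 to 3.77). It depended on how members were taken, with 8.33 within 1 Mb of the edges, 1.60 with the gap found from the list before induction alone and 1.66 without chromosomes 4, 10 and 16. It was 1.11 when neighbouring peaks within 10 kb of each other were counted once. The flanks made up 4.36% of the length searched. Members before induction had a density of 2.62 peaks per Mb, and peaks farther out on the same chromosomes 0.825 per Mb. After induction the density was 3.64 per Mb beside the gaps and 4.09 per Mb farther out. The list before induction was thus denser beside the gaps than elsewhere, while the list after induction was slightly sparser there.

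The share before induction was the higher one on 12 of 17 chromosomes and the lower one on 5. The largest shares before induction were on chromosomes 16, 10, 19 and 4, the last of these with the largest ratio of the 2 shares. On chromosome 16, 49 of 118 peaks before induction (41.5%, interval 32.5 to 51.0%) were members, against 19 of 332 (5.72%) after induction. On chromosome 10, 63 of 175 (36.0%, 28.9 to 43.6%) were members before and 21 of 596 (3.52%) after induction. Chromosome 4 had 47 of 175 (26.9%, 20.4 to 34.1%) before and 17 of 664 (2.56%) after, a ratio of shares of 10.5. On chromosome 19 the share was 17 of 53 (32.1%, 19.9 to 46.3%) before and 26 of 230 (11.3%, 7.52 to 16.1%) after induction. Together chromosomes 4, 10 and 16 held 159 members before induction, or 59.6% of them, but 57 members after induction (15.4%). The median chromosome had 8 members before and 19 after induction. At the other end, chromosome 3 had 1 of 143 peaks beside its gap before induction (0.699%, interval 0.0177 to 3.84%) and 27 of 716 (3.77%) after it, the smallest ratio of shares (0.185). Chromosomes 9 (2 of 104 before and 18 of 467 after) and 8 (5 of 124 and 41 of 566) followed. The intervals of the 2 shares overlapped on all 5 chromosomes with the lower share before induction (3, 8, 9, 12 and 17) and on 6 of the 12 with the higher one (1, 2, 5, 11, 18 and 20). They were apart on chromosomes 4, 6, 7, 10, 16 and 19, but these intervals take peaks of the same tight group (described below) as independent. A single group held 6 of the 9 members before induction on chromosome 6 and 11 of 16 on chromosome 7. It held 12 of 17 on chromosome 19, 41 of 49 on chromosome 16 and 42 of 63 on chromosome 10. On chromosome 4 groups of 28 and 18 peaks lay among the 47. Whether the shares differ there apart from these groups was not tested. The most members after induction lay on chromosomes 8 (41), 20 (30) and 1 (28) and the largest shares after induction on chromosomes 19 (11.3%) and 20 (10.8%), so chromosome 19 was among the largest shares in both lists.

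**Figure D1:**
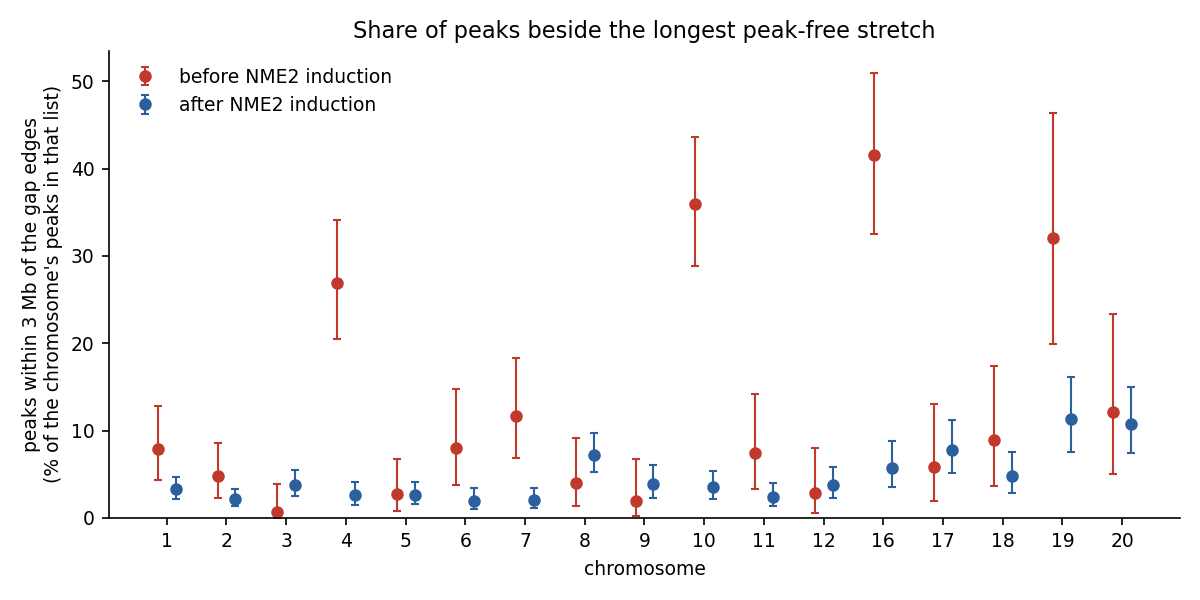
Share of each chromosome's peaks that lay within 3 Mb of the gap edges (percent, vertical axis) on the 17 chromosomes, before (red) and after (blue) NME2 induction, with exact binomial 95% intervals as bars. Chromosomes 4, 10, 16 and 19 rise to between 26.9% and 41.5% before induction, while no chromosome exceeds 11.3% after induction.

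The distances of members from the edges were also counted, as a description, since the edges were taken from these same peaks and a group whose outermost peak set the edge lies at it by construction. The median distance of a member from its edge was 32.3 kb before induction and 1469 kb after induction. Within 100 kb of an edge were 167 members before induction (62.5% of them, a density of 49.1 per Mb) and 28 after induction (7.55%, 8.24 per Mb). Every edge is itself a peak by construction, which accounts for 15 of the 167 and 20 of the 28, leaving 152 and 8 peaks that set no edge. The neighbours of an edge peak in its group remain in these numbers. Outside the dense groups described below, 19 members before and 28 after induction lay within 100 kb, of which 13 and 8 set no edge, and the median distances were 1106 and 1469 kb. From 100 to 500 kb there were 14 members before and 40 after induction, and from 500 to 1000 kb 41 and 52. The density before induction from 500 to 1000 kb, 2.41 per Mb, was above the 0.825 per Mb farther out, and it was 0.765 per Mb (13 members) outside the dense groups. From 1 to 2 Mb the densities were 0.618 per Mb before and 3.88 after induction, and from 2 to 3 Mb 0.706 and 3.50, below the density farther out in both lists. At the outer limit of the window 4 members before induction lay in the last 100 kb inside and 2 peaks in the first 100 kb outside it, against 14 and 6 after induction.

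**Figure D2:**
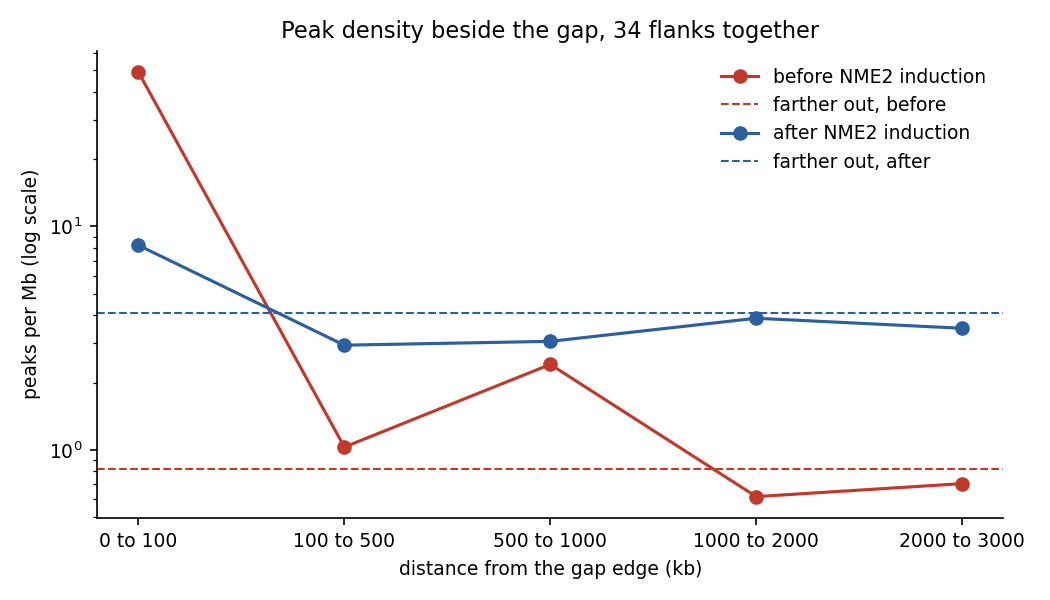
Peaks per Mb (log scale, vertical axis) by distance from the gap edge (kb, horizontal axis), summed over the 34 flanks, before (red) and after (blue) NME2 induction, with the density farther out as dashed lines. The list before induction falls from 49.1 to 1.03 per Mb beyond the first 100 kb, with 2.41 per Mb at 500 to 1000 kb, and the list after induction stays between 2.94 and 3.88 per Mb beyond 100 kb.

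Most members before induction stood in a few tight groups. Peaks of one list were joined into a group where neighbours lay at most 10 kb apart, and a group of 5 or more peaks is called dense here, a limit chosen after the peaks were seen. Of the 267 members before induction 182 (68.2%, interval 62.2 to 73.7%) belonged to 11 dense groups on 9 chromosomes, against 10 of 1847 peaks farther out (0.541%, 0.260 to 0.993%). None of the 371 members after induction did, which allows a share of up to 0.809% if a count of 0 is taken to allow 3 counts (0.989% by the exact interval), and 16 of 9150 peaks farther out did (0.175%). The 11 groups covered 257 kb in all. Of these groups 9 reached the edge of the gap, since their outermost peak had set it, and the farthest began 503 kb away from it. No dense group held or overlapped a peak of the list after induction, whose nearest peak was between 101 and 1009 kb away. At the 3.64 peaks per Mb of that list beside the gaps, few peaks would fall in 257 kb in any case. The 9 groups at an edge also had the gap on one side, which holds no peak by the choice of members.

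The largest group had 42 peaks in 43.0 kb on chromosome 10 of hg18, from 41677457 to 41720451, at the right edge of a gap whose left edge was at 38922338. A second group of 6 peaks followed at 41916648 to 41920420. No peak of the list after induction lay within 301 kb of the first or within 101 kb of the second group. On chromosome 16, 41 peaks lay in 47.5 kb from 44945633 to 44993115, also at the right edge, with the left edge of the gap at 34413889. The median spacing between the centres of neighbouring peaks was 677 bp in the group on chromosome 10 and 713 bp in that on chromosome 16. On chromosome 4 the groups stood to the left of the gap, with 28 peaks from 48789179 to 48851703 and 18 peaks from 49329104 to 49354640, where the gap began, and the right edge was at 52760459. The 4 groups of 18 or more peaks held 129 peaks. The other 7, the second group on chromosome 10 among them, had between 5 and 12 peaks each, led by chromosome 19 (12 peaks, from 32423861 to 32432131) and chromosome 7 (11 peaks, from 61604533 to 61623617), both to the right of the gap. After induction the largest group of members had 4 peaks, on chromosome 20 from 23587151 to 23588938, 2617 kb from the edge, and groups of 3 lay on chromosomes 1, 7 and 10.

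**Figure D3:**
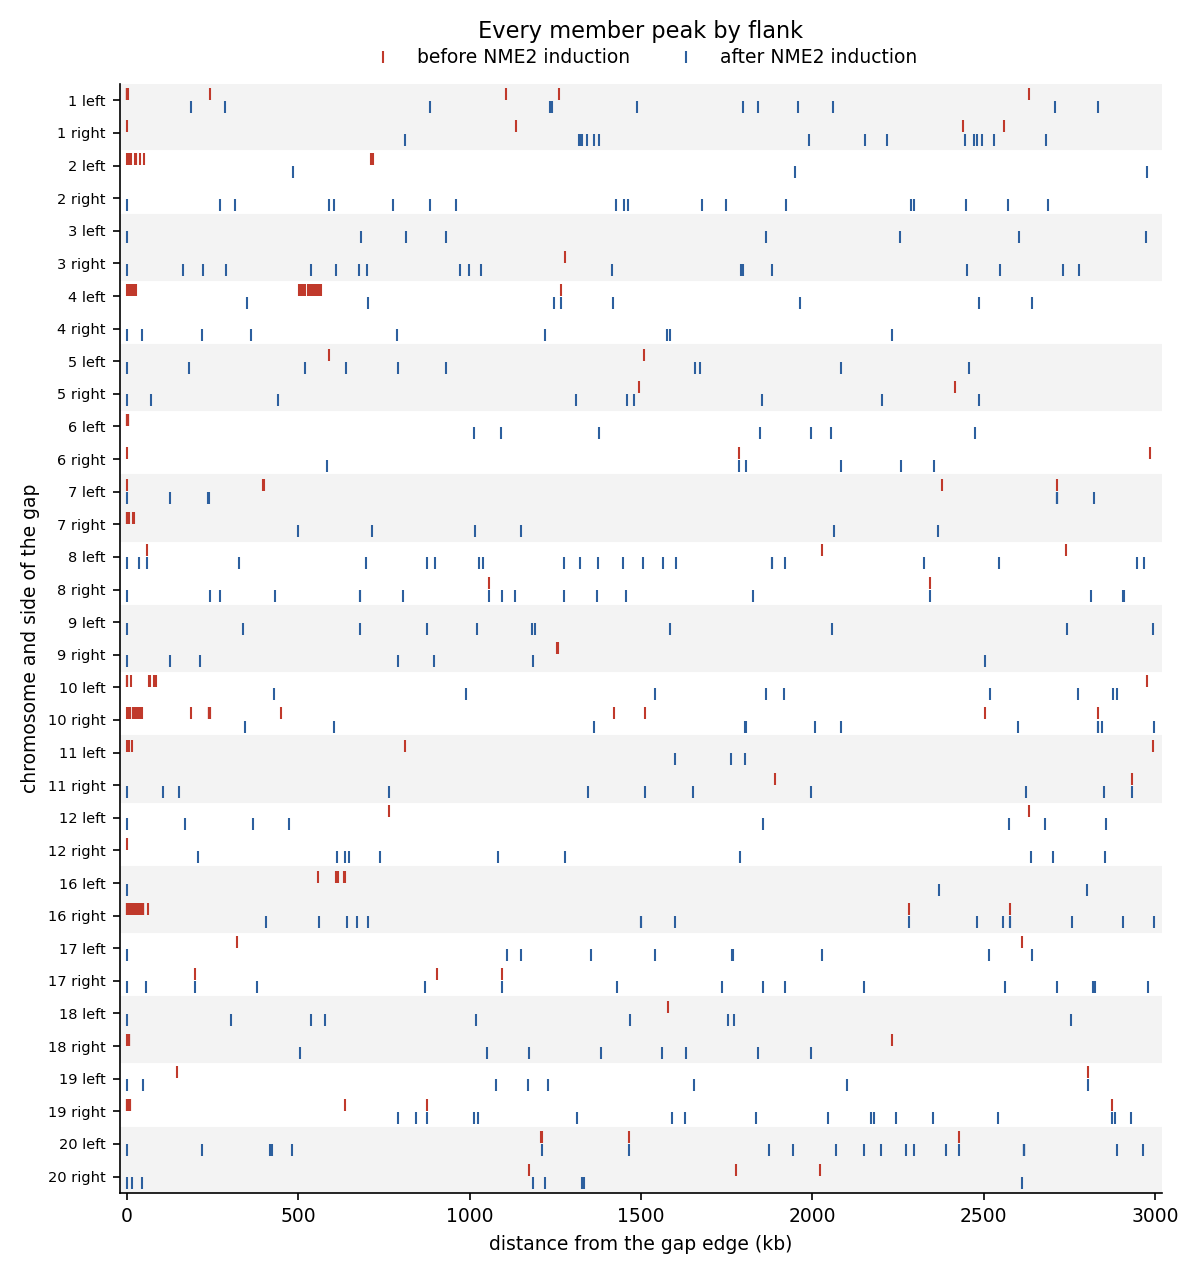
Every member peak as a tick, by distance from the gap edge (kb, horizontal axis), in the 34 flanks (chromosome and side, vertical axis), before (red) and after (blue) NME2 induction. The red ticks merge into blocks at the edge of chromosomes 10 right, 16 right and 4 left. On 4 left a larger block begins 503 kb from the edge. The blue ticks spread over the 3000 kb without such blocks.

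Outside the dense groups the shares of the 2 lists beside the gaps lay much closer together. With dense groups left out of the whole list, 85 of 1922 peaks before induction were members (4.42%, interval 3.55 to 5.44%) and 371 of 9505 after induction (3.90%, 3.52 to 4.31%). The ratio of the shares was 1.13 (interval 0.900 to 1.43), an interval that includes equal shares. The density of these members before induction was 0.833 per Mb, beside 0.825 per Mb farther out.

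The flanks were also set beside other windows of the same size. Of the 34 flanks 7 held more peaks before than after induction, whereas 0.274% (2 of 730) of the 3 Mb windows farther out did. Without dense groups 2 flanks held more peaks before than after induction, and with neighbours within 10 kb counted once 0 did. No member after induction stood in a dense group, so leaving these groups out could only lower the count. With flanks of 1 Mb the count was 12. Windows farther out were not recounted under these settings, so these counts have no background and cannot be read against the 0.274%. The 7 flanks were the left ones of chromosomes 2, 4, 11 and 16 and the right ones of chromosomes 7, 10 and 16. The 2 windows farther out were on chromosomes 4 (3 peaks before and 2 after) and 5 (5 and 4). With the lengths of the lists taken into account, the share before exceeded the share after induction in 20 of 34 flanks, against 41.2% (301 of 730) of the windows farther out. The number of peaks before induction per flank had a median of 3 and ranged from 0 to 54, beside a median of 2 and a range of 0 to 12 farther out. After induction the median was 9 (3 to 23) per flank and 12 (2 to 34) farther out.

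**Figure D4:**
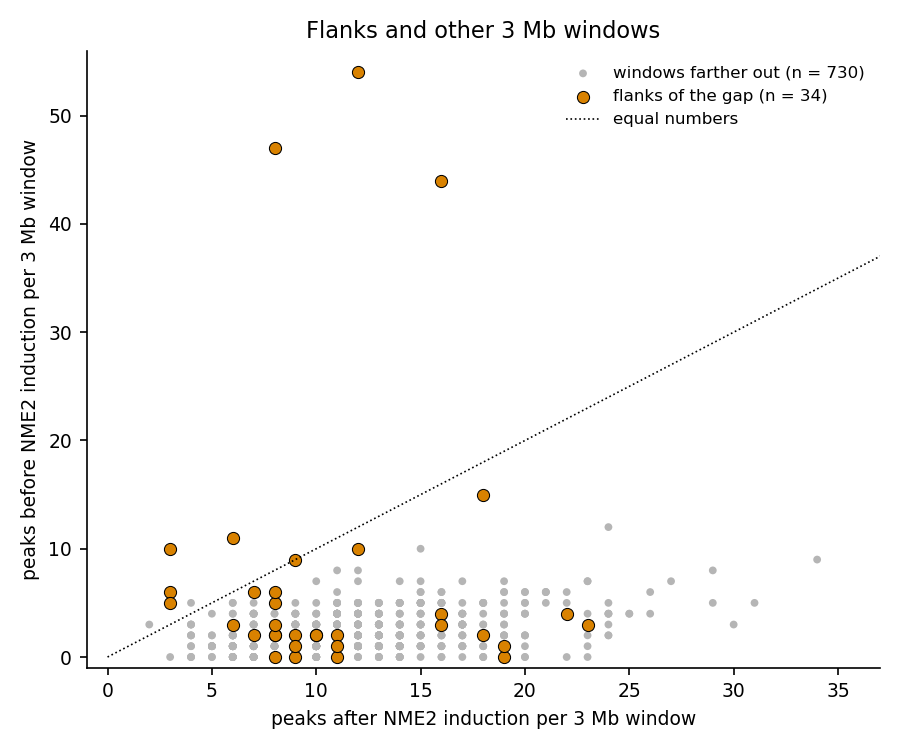
Peaks before (vertical axis) against peaks after NME2 induction (horizontal axis) in the 34 flanks (orange) and in 730 other windows of 3 Mb (grey) on the same chromosomes, with a dotted line at equal numbers. Of the flanks 3 reach 44, 47 and 54 peaks before induction with at most 16 after it, and no grey point exceeds 12 before induction.

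The 2 sides of the gap, left being that of lower coordinates, held somewhat unequal totals in both lists, and before induction single chromosomes were loaded on opposite sides. Before induction 114 members lay to the left and 153 to the right (57.3%, interval 51.1 to 63.3%), and after induction 162 and 209 (56.3%, 51.1 to 61.5%). On chromosome 4 all of the 47 members before induction were on the left. Chromosome 10 had 9 on the left and 54 on the right, chromosome 16 had 5 and 44, and chromosome 19 had 2 and 15. Of the 10 chromosomes with at least 6 members before induction on one side, 7 had at least 3 times as many there as on the other side, and after induction 3 of 17 did. These are counts of peaks, and a dense group falls on one side as a whole. Members after induction stood in no dense group, so the counts of the 2 lists are not alike. The share on the right before induction rested on single chromosomes and was 48.5% without chromosome 10, 109 of 218 without chromosome 16 and 69.5% without chromosome 4.

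Members before induction had larger widths than the rest of their list, and members after induction had nearly the same widths as the rest of theirs. The median width was 87 bp (quartiles 29 and 201 bp) for members before induction and 29 bp (28 and 98 bp) farther out. After induction the medians were 89 bp (29 and 199 bp) and 92 bp (29 and 200 bp). Peaks of at most 29 bp, close to the narrowest width of 28 bp, made up 29.2% (interval 23.8 to 35.1%) of members before induction and 51.4% (49.1 to 53.7%) of the peaks farther out. In the list after induction these shares were 42.3% (37.2 to 47.5%) and 42.6% (41.6 to 43.6%). Peaks wider than 300 bp made up 10.9% (29 of 267, interval 7.40 to 15.2%) of members before induction and 0.758% (14 of 1847, 0.415 to 1.27%) of peaks farther out, against 4.58% and 4.11% after induction. Of these 29 wide members 26 were in dense groups. The median width was 126.5 bp in the dense groups and 54 bp among the other members before induction. The 3 widest members before induction lay on chromosome 10. They measured 1745 bp (41707036 to 41708780), 1380 bp (41919041 to 41920420) and 1352 bp (41710407 to 41711758), all in dense groups. After induction the widest were of 907 bp on chromosome 19 (35298686 to 35299592), 588 bp on chromosome 16 (45648389 to 45648976) and 533 bp on chromosome 10 (43040413 to 43040945), between 703 and 2875 kb from the edge.

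**Figure D5:**
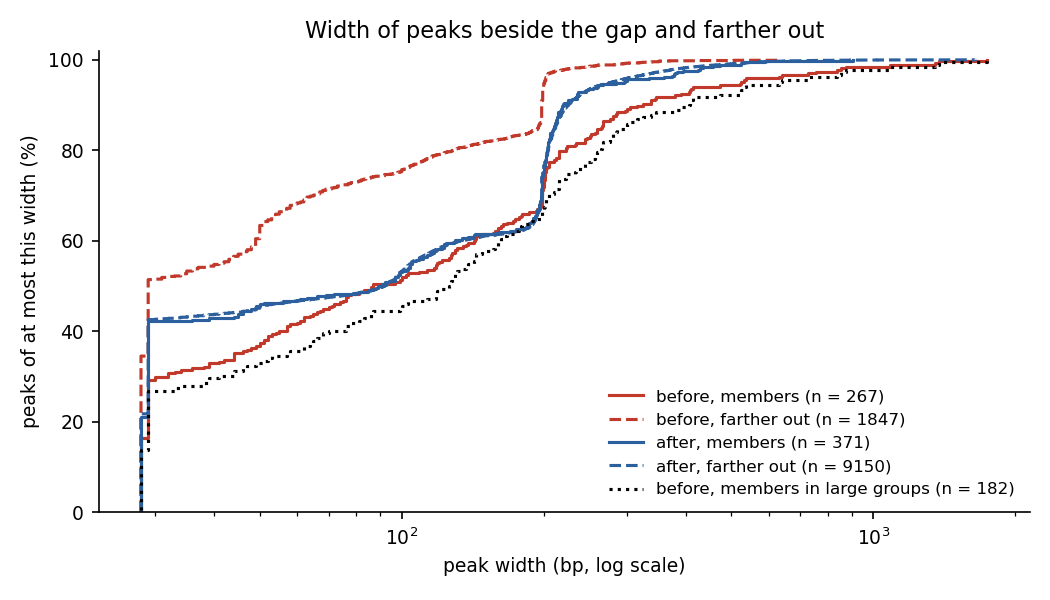
Cumulative share of peaks (percent, vertical axis) by width (bp, log scale, horizontal axis) for members (solid) and peaks farther out (dashed), before (red) and after (blue) NME2 induction, and for members before induction in dense groups (black dots). The blue lines nearly coincide, with medians of 89 and 92 bp, and the red lines part, with medians of 87 and 29 bp.

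Members before induction overlapped the other list less often than peaks farther out did, and the members in dense groups made up most of this difference. An overlap of at least 1 bp with a peak of the other list was found for 15 of 267 members before induction (5.62%, interval 3.18 to 9.10%), against 425 of 1847 peaks farther out (23.0%, 21.1 to 25%). Within 1 Mb of the edges the share was 1.80%, against 23.0% farther out than that, and without chromosomes 4, 10 and 16 it was 11.1% against 23.2%. Where 50% of both peaks had to overlap, it was 1.498% of members and 6.61% of peaks farther out. After induction the share of members, 4.04% (15 of 371, 2.28 to 6.58%), was close to the 4.57% (418 of 9150, 4.15 to 5.02%) farther out. None of the 182 members in dense groups overlapped, which allows up to 1.65% by the same 3 counts (2.01% by the exact interval), and 15 of the other 85 did (17.6%, 10.2 to 27.4%), an interval that includes the 22.7% (417 of 1837) of peaks farther out that stood in no dense group. The 15 shared sites lay on 10 chromosomes, and only 2 of them were within 100 kb of an edge. The shared site at the edge itself, on chromosome 7 from 57953409 to 57953606, had the same 198 bp in both lists. On chromosome 20 a peak of 172 bp before induction (24995852 to 24996023) lay wholly inside a peak of 429 bp after induction (24995790 to 24996218). On chromosome 6 a peak of 109 bp (64872206 to 64872314) overlapped one of 198 bp by 106 bp. The next longest overlaps, of 29 bp each, were at a peak of 198 bp on chromosome 10 (44512334 to 44512531), one of 29 bp on chromosome 20 (23776836 to 23776864) and one of 29 bp on chromosome 8 (42622112 to 42622140). At 12 of the 15 sites at least one of the pair was no wider than 29 bp, and the median overlap was 28 bp.

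Members had higher median running numbers than the rest of their list in both conditions. The running numbers that the lists give each peak, whose meaning is not stated, had a median of 1649 for members and 1397 farther out before induction. With the numbers cut into 5 equal ranges, 28 of 525 peaks (5.33%, interval 3.57 to 7.62%) in the first range were members, and in the other 4 between 12.7% and 16.7%. After induction the median was 7194 for members and 6176 farther out, and the share of members was between 3.14% and 4.71% in the 5 ranges.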

How the data were processed

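The authors clipped the ChIP-seq reads, aligned them with MAQ to hg18 and used CisGenome to call peaks over IgG, after which boundaries were refined and sites seen on 1 strand removed. How replicates were combined is not given in the sources used here. The 2 deposited lists have neither header nor sample column and give a running number, chromosome, start and end per peak, other values being absent. Their condition was taken from the names the authors gave them. The depth behind each peak is unknown, so the precision is that of peak counts. Starts counted from 0 and are printed from 1.

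Gaps, members, groups and overlaps were computed with python 3.11.15, numpy 2.4.6, pandas 2.3.3 and scipy 1.17.1, drawn with matplotlib 3.10.9, and tested on simulated data. Shares have Clopper-Pearson 95% intervals, and the ratio of shares a log-normal (Katz) interval. Windows of 3 Mb were laid outwards from the flanks as far as they fitted whole. The members, the comparisons and the rule for named regions (leading chromosomes, widest peaks, largest groups and longest overlaps) were chosen with earlier results of these data known. Further flanks, windows and chromosomes were named after their values were seen. Alternatives covered the window, the gap, the unit counted, chromosomes, width and overlap. No hg18 sequence or annotation of genes, repeats or assembly gaps was used here.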

Additional observations from a re-analysis of the deposited data

How the results depend on the processing

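No paired analysis was possible because the lists carry no replicates, so none could be left out either. Of 169 recomputed values 126 stayed inside the main interval (or, for counts, within a factor of 1.5 of the main count in either direction), and 43 moved. The share before induction, 12.6%, became 10.5% within 1 Mb, 14.8% within 5 Mb, 10.9% with the gap from the list before induction alone, 17.4% among peaks wider than 29 bp, 6.56% without chromosomes 4, 10 and 16, 4.34% and 4.27% with 1 count per group within 10 and 100 kb, and 4.42% without dense groups. The share after induction, 3.90%, became 1.26%, 2.65% and 6.19% within 1, 2 and 5 Mb, 6.80% with the gap from the list before induction alone, and 3.49% (298 of 8551) on chromosomes whose longest stretch is at least 1.5 times the second. The ratio, 3.24, became 8.33, 4.34 and 2.39 within 1, 2 and 5 Mb, 1.60 with the gap from the list before induction, 4.45 among wider peaks, 1.66 without chromosomes 4, 10 and 16, 1.11 and 1.06 per group within 10 and 100 kb, and 1.13 without dense groups. With 1 chromosome left out at a time, the share ran from 10.5% (without chromosome 10) to 13.5% before and from 3.69% to 4.10% after induction, and the ratio from 2.68 (without chromosome 10) to 3.57. The ratio stayed above 1 in all 30 alternatives, but it came close to 1 where groups were counted once or dense groups left out. Without dense groups its interval (0.900 to 1.43) included equal shares.

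The 7 flanks with more peaks before induction became 12 with flanks of 1 Mb, 2 without dense groups and 0 per group within 10 kb. Windows farther out were not recounted under these settings. By share of the list the count was 20 of 34 flanks, beside 41.2% (301 of 730) of the windows farther out. The share on the right before induction, 57.3%, became 50.6% per group within 10 kb, 50.9% without chromosomes 4, 10 and 16, 42.4% without dense groups, and ran from 48.5% to 69.5% with 1 chromosome left out. It ran from 54.4% to 58.9% after induction. Peaks of at most 29 bp made up 35.2% of members before induction without chromosomes 4, 10 and 16, and a limit of 100 bp gave 52.1% before and 53.4% after induction. Peaks farther out were not recounted under these 2 settings, so these shares have no background. The upper quartile of width farther out was 98 bp before and 200 bp after induction. The share of members overlapping the other list before induction became 1.80% within 1 Mb and 11.1% without chromosomes 4, 10 and 16. It was 17.6% without dense groups and 1.498% with 50% of both peaks required. After induction that requirement gave 1.08% of members and 1.33% of peaks farther out. The 1.5-fold limit and the removal of dense groups were chosen after seeing the data. Counting groups and leaving out dense groups remove clustered peaks by construction, and a wider or narrower window takes in more or fewer peaks by construction. The causes of the other changes were not tested.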

Other observations

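On 7 chromosomes outside the choice of members the peaks nearest to a long peak-free stretch were counted in the same way. On chromosomes 13, 14, 15, 21 and 22, whose first peak lay between positions 9822765 and 19147489, the 3 Mb that follow the first peak had 13 of 299 peaks before induction (4.35%, exact binomial interval 2.34 to 7.32%) and 28 of 1380 after induction (2.03%, 1.35 to 2.92%), and the intervals overlapped. No dense group lay there. Chromosome X had 1 of 90 peaks before and 29 of 558 after induction beside its longest stretch of 4.89 Mb, and chromosome Y had 14 of 38 and 11 of 86 beside a stretch of 30.1 Mb. Over its whole length chromosome Y held 3 dense groups before induction, with 9 peaks from 57381847 to 57406437, 6 from 11914502 to 11929214 and 5 from 11939571 to 11945557. The first lay too far from the others for all 3 to be within 3 Mb of that stretch. The closest site in the list after induction was 366 kb away from the first group and over 1 Mb away from the others.

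Away from the gaps the list before induction had 2 dense groups of 5 peaks each on the 17 chromosomes, at positions 4 to 1168 of chromosome 18 and from 199384329 to 199385245 on chromosome 3. In each of these 2 groups 4 peaks overlapped a peak found after induction, whereas none did in the 11 dense groups beside the gaps. Peaks of a group are not independent, so this sets 2 sites beside 11 and is a description only.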
